A study of Mus musculus with 8 samples.

Results

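The genes of the proteasome and its activators were examined in mouse ventricle with and without a heterozygous deletion in Pkp2. Members were the genes whose symbol is Psma, Psmb, Psmc, Psmd, Psme, Psmf or Psmg followed by a number, without the immunoproteasome genes Psmb8, Psmb9 and Psmb10, which gave 45 of the 38293 genes in the deposited count table. They comprised 8 genes of the core's alpha ring, 8 of its beta ring, 9 of the base, 8 of the lid, 3 chaperones of base assembly, 4 chaperones of core assembly, and 5 genes for activators and an inhibitor. The study holds 8 libraries of poly(A)-selected RNA from a mixture of left and right ventricle, all taken at 8 weeks of age. In 4 libraries the genotype label is PKP2 c.1755A/WT, which the series title gives as the deletion c.1755delA over a wild-type allele (HET), and in 4 it is PKP2 WT/WT (WT). The deposited table is named for loss of a different base; the title is followed here. Some sample titles share digits, whose meaning the labels do not give. Strain, sex and any other allele are not given in the labels, nor do the labels say that each library came from its own animal, so p-values here rest on the scatter among libraries, which may be technical. Degradation of desmosomal proteins in arrhythmogenic cardiomyopathy is the subject the series title names, and the proteasome is a main route of protein degradation in heart muscle.

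The proteasome is the protease of the cytosol and nucleus that takes apart proteins tagged with ubiquitin. Its core is a barrel of stacked rings, in which outer alpha rings gate the entry and inner beta rings carry the active sites of Psmb5, Psmb6 and Psmb7. A regulatory particle caps the barrel: its base unfolds substrates with the ATPases Psmc1 to Psmc6, and its lid removes ubiquitin. Activators such as Psme1 to Psme4 can cap the barrel in place of the regulatory particle. Interferon induces Psme1 and Psme2 and the alternative active-site subunits Psmb8, Psmb9 and Psmb10, which replace Psmb5, Psmb6 and Psmb7 in the immunoproteasome. The transcription factor Nfe2l1 raises proteasome subunit genes together through antioxidant response elements in their promoters when proteasome activity falls.

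Promoter letters are shown for 4 of the genes discussed below for differences between single libraries (Psme1, Psme2, Psmb5 and Psmg4), with Psmb6 for comparison; Psma8 is not shown. RefSeq windows on GRCm38.p6, from 250 bases before to 50 after each start site, matched 37 of the 45 genes (40 windows). Below is a stretch of 180 bases for each of 5 genes, from 150 before to 30 after the start, in the direction of the gene. Capitals mark an interferon-stimulated response element (GAAANNGAAA on either strand) in Psme1, Psme2 and Psmg4, and the core of an antioxidant response element (TGACNNNGC on either strand) in Psmb5 and Psmb6. Psme2 is in lower case throughout because the interferon letters do not occur in it or in its second window.
Psme1, chr14:55578344-55578523, plus strand: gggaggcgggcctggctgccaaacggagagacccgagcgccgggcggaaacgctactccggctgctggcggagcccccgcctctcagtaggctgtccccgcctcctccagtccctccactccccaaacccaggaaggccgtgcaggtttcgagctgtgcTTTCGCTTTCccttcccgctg
Psme2, chr14:55591072-55591251, minus strand: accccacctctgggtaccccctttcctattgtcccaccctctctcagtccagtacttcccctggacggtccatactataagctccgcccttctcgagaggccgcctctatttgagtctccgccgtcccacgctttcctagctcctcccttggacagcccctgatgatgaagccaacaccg
Psmg4, chr13:34162814-34162993, plus strand: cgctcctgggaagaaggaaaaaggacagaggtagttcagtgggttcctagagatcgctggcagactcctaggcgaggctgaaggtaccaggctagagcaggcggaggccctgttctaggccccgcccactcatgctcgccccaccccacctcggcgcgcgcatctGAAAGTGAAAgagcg
Psmb5, chr14:54617966-54618145, minus strand: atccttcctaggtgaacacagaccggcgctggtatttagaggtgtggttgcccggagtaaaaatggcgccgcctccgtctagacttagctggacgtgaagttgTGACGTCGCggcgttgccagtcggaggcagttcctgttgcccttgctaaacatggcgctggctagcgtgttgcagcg
Psmb6, chr11:70525207-70525386, plus strand: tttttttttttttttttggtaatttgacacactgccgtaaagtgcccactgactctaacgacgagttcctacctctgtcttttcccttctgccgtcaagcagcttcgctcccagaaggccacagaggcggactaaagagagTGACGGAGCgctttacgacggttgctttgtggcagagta
The antioxidant letters occurred in 6 of the 40 windows (15%) against 12.4% of all 32851 windows, in Psmb5, Psmb6, Psmc6, Psmd9, Psmd12 and Psme4. The interferon letters occurred in 5 (12.5%) against 3.44%, in Psmb3, Psmd4, Psmd9, Psme1 and Psmg4. The CCAAT box was in 13 windows (32.5%, against 37.4%), the gamma-activated site TTCNNNGAA in 2 (5%, against 8.3%) and the heat shock pair GAANNTTC in 2 (5%, against 7.86%). Only the window of Psmd9 holds both the interferon and the antioxidant letters, and matches of different motifs did not overlap in any of the 40 windows. A match is a run of letters and no evidence of binding.

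Pkp2 transcript was lower in every HET library, at 88.2 to 105.5 CPM (counts scaled to library size, with TMM factors) and at 148.4 to 169 CPM in the WT libraries. Its log2 fold change was -0.74 (SE 0.065), and the edgeR adjusted p was 0.00376. Total counts were 32397302 to 41234883 per library, and proteasome genes held 0.350% to 0.382% of them. All 6 cardiomyocyte markers were present. Their sums, 58112 to 60660 CPM in HET and 54205 to 58083 CPM in WT, did not overlap. Myh6 was the largest part of each sum, at 32731 to 37621 CPM. Of the 6 genes Myh6 alone separated the groups, as 3.78% of all genes do. edgeR called 0 of the 6, with 2 at an unadjusted p under 0.05, against 6.38% of all genes. The part of this difference in cardiomyocyte markers in the proteasome values was not tested. One library, WT replicate 3, differed from all others in interferon-induced genes, as described with the activators, and results that rest on it are given with and without it. In a bulk tissue, fewer cells of a type and less RNA per cell cannot be told apart.

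No proteasome gene passed the test between HET and WT. Of the 45, Psmb11, a beta subunit known from the thymus, had 0 counts in all 8 libraries (3 counts, the limit that 0 allows, correspond to 0.0728 to 0.0926 CPM), and 44 passed the filter on low counts. edgeR called 0 of the 44, where it called 0.00686% of all 14567 genes tested, Pkp2 alone. At an unadjusted p under 0.05 edgeR had 0 of 44 against 6.38% of all genes. DESeq2 called 0 (0.0895% of all genes), with 0 at unadjusted p, and limma-voom called 0 (0.00686%), with 1 at unadjusted p, the activator Psme3. For these tools the share of all genes at unadjusted p is not given. The HET and WT libraries overlapped for all 44, while they did not overlap for 3.78% of all genes. Adjusted p-values by edgeR ran from 0.77 to 0.999. The median log2 fold change was -0.006 over the 44 genes and -0.004 over all genes tested, with 19 above and 25 below 0.

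The spread around these values was small for most of the complex. For 39 of the 44 genes (88.6%) the 95% interval of the HET level lay between 80% of the WT level and the reciprocal of that above it, against 53.9% of all genes and 82.8% of those at 10 CPM or more. The 5 genes with wider intervals were Psma8, Psmb5, Psme1, Psme2 and Psmg4. Without WT replicate 3 the intervals of 41 lay within that bound, and Psma8, Psmb5 and Psmg4 did not. The coefficient of variation over the 8 libraries was under 10% for 39 of 44 genes (52.0% of all genes, 78.3% of those at 10 CPM or more), with a median of 4.31%. The 5 others were the same genes, at 30.3% for Psma8, 19.6% for Psmb5, 31.1% for Psme1, 55.6% for Psme2 and 13.7% for Psmg4. Over the 7 libraries without WT replicate 3 it was under 10% for 42 of the 44, and Psma8 and Psmb5 were the exceptions.

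**Figure D1:**
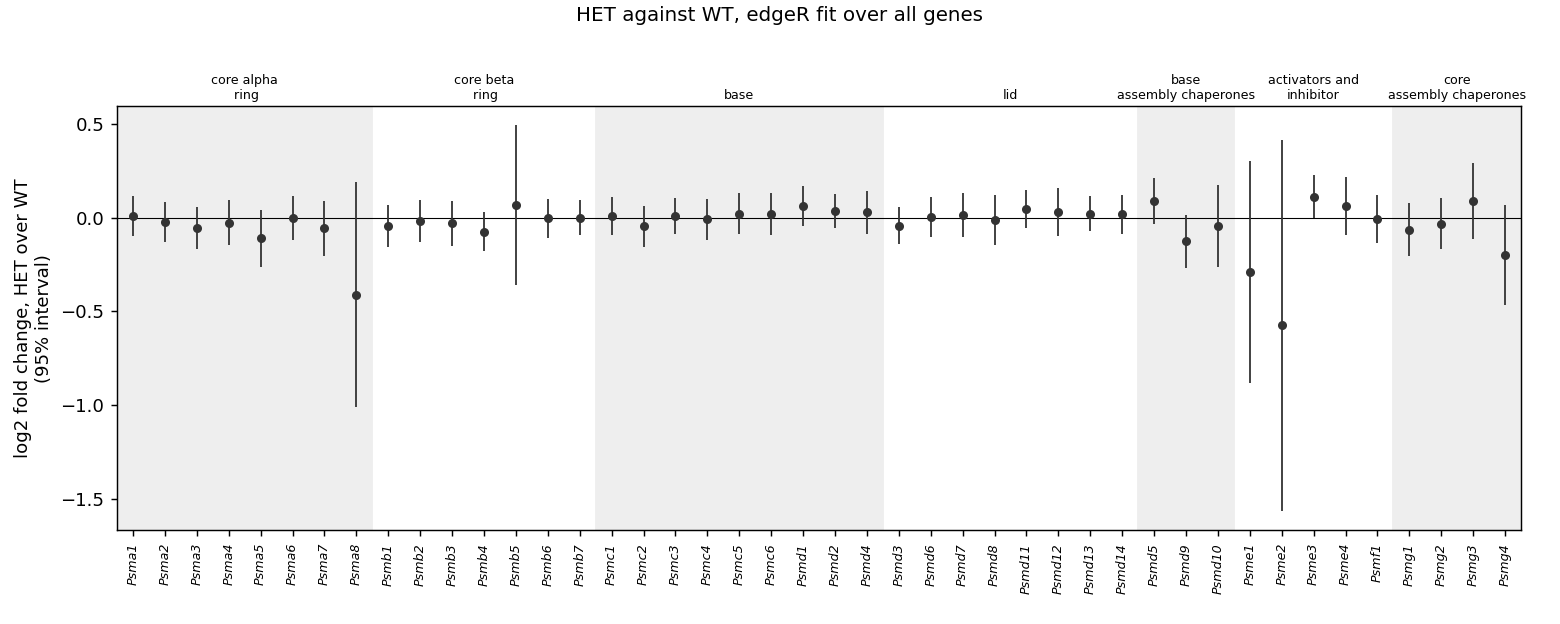
Log2 fold change of HET over WT for the 44 tested proteasome genes, with 95% intervals from the edgeR fit over all genes, ordered and shaded by role. All intervals include 0, and those of Psma8, Psmb5, Psme1, Psme2 and Psmg4 are the widest.

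The alpha ring, which gates entry into the core, had 1 gene above and 7 below 0 (median -0.04, 0 of 8 called). Without WT replicate 3 the split was 0 and 8, and with the title digits as covariate 4 lay on each side. WT replicate 2 is alone in the digits used, so that covariate takes WT replicate 2 out of the comparison. Psma5 (ENSMUSG00000068749; chromosome 3, 108256926 to 108279974, plus strand on GRCm38) had 29.3, 26.6, 28.1 and 29.5 CPM in HET and 27.3, 33.4, 31.4 and 30.3 CPM in WT. WT replicate 2 was its highest library, and WT replicate 1 lay among the HET values. Its log2 fold change was -0.11 (SE 0.068, adjusted p = 0.773 by edgeR), and -0.06 without WT replicate 2. Psma8, the germ-cell counterpart of Psma7, was near the lower limit, at 0.66, 0.47, 0.48 and 0.76 CPM in HET and 0.62, 0.65, 1.14 and 0.74 CPM in WT, or 15 to 47 counts. WT replicate 3 held the highest value, and the log2 fold change of -0.41 (SE 0.271, adjusted p = 0.773 by edgeR) was -0.18 without it. Of the remaining alpha subunits Psma1 ran from 87.6 to 96.2 CPM and Psma2 from 63.5 to 69.8 CPM, while Psma7 ranged more widely, from 81.4 to 100.4 CPM, with its lowest and highest values both in WT.

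In the beta ring 1 of 7 tested genes lay above 0 and 6 below (median -0.02, 0 called). Without WT replicate 3, 0 lay above and 7 below. With the title digits as covariate, which takes WT replicate 2 out of the comparison, 5 lay above and 2 below (median 0.01). Psmb4 (chromosome 3, 94884093 to 94886961, minus strand), a non-catalytic subunit, stood at 121.4, 115.1, 114.8 and 115.9 CPM in HET and at 115.8, 125.4, 127 and 123.6 CPM in WT. WT replicate 1 fell among the HET libraries and HET replicate 1 above it. The log2 fold change was -0.07 (SE 0.047, adjusted p = 0.773 by edgeR). Psmb1, another non-catalytic subunit, had a log2 fold change of -0.04 (SE 0.050, adjusted p = 0.874 by edgeR), and leaving out HET replicate 3, WT replicate 1 or WT replicate 2 gave -0.02, -0.07 and -0.01. Of the catalytic subunits, Psmb7 (trypsin-like) was among the steadiest genes of the complex, at 122.6 to 129.1 CPM, and Psmb6 (caspase-like) stood at 99.2 to 109.7 CPM.

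Psmb5, the chymotrypsin-like catalytic subunit, differed between single libraries of both genotypes. Psmb5 (ENSMUSG00000022193; chromosome 14, 54614119 to 54618022, minus strand) stood at 30.8, 21.4, 19.2 and 27.8 CPM in HET and at 25.7, 20.1, 19.5 and 29.5 CPM in WT. HET replicates 2 and 3 and WT replicates 2 and 3 were low, and the 4 other libraries were high, so the split crossed genotype. It also crossed the title digits. The log2 fold change was 0.07 (SE 0.186, adjusted p = 0.955 by edgeR), and -0.02 without WT replicate 3.

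The same libraries separated on some other genes of chromosome 14, but not on the nearest of those examined. The rule for likeness was chosen after these values were seen, and ranked all tested genes by the absolute Pearson r of log2 CPM with Psmb5 over the 8 libraries. The first 5 were Slc39a2 (r 0.98), Supt16 (-0.98), the slow myosin gene Myh7 (-0.97), Isg20l2 (-0.96) and Tnfrsf10b (-0.96). Of these 5, 4 lie on chromosome 14, as do 7 of the first 20, against 3.41% of tested genes. Myh7, 0.353 Mb from Psmb5, stood at 61.3, 1054, 1064 and 82.99 CPM in HET and at 89.5, 1093, 974.2 and 73.2 CPM in WT. The 4 libraries with the most Myh7 were the 4 with the least Psmb5. Myh6, slightly closer at 0.324 Mb, had r 0.09, and Psme1 and Psme2, within 0.969 Mb, had -0.33 and -0.44. Of the 7 genes of chromosome 14 among the first 20, 3 lie 15.1 to 22.3 Mb away. The r of Psmb5 with the other proteasome genes ranged from -0.68 to 0.81. These r values describe 8 libraries and the highest of many genes.

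**Figure D2:**
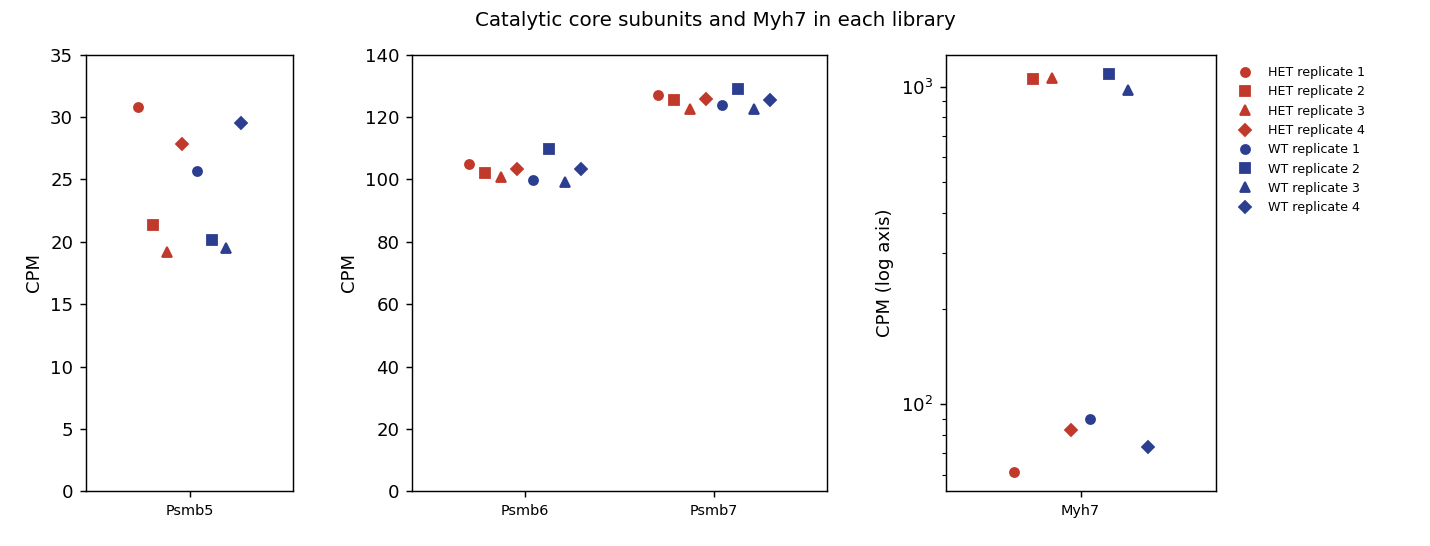
CPM of the catalytic subunits Psmb5, Psmb6 and Psmb7 and of Myh7 (log axis) in each library, with HET in red and WT in blue and a symbol for each replicate. Psmb5 runs from 19.2 to 30.8 CPM in both genotypes while Psmb7 stays between 122.6 and 129.1 CPM, and the 4 libraries lowest in Psmb5 hold 974.2 to 1093 CPM of Myh7.

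The base, which unfolds substrates and threads them into the core, had 7 genes above and 2 below 0 (median 0.02, 0 of 9 called). Without WT replicate 3, which was the lowest library for Psmc3, Psmc4, Psmc5, Psmc6 and Psmd4, 2 lay above and 7 below 0 (median -0.01). With library-size scaling 1 lay above and 8 below, where 32.75% of all genes lay above 0 (48.52% in the main fit). Psmd1, a scaffold of the base (chromosome 1, 86064387 to 86139151, plus strand), stood at 129.5, 120.6, 131.4 and 127.3 CPM in HET and at 126.4, 123.8, 121.8 and 115.3 CPM in WT. WT replicate 4 was its lowest library and HET replicate 2 lay among the WT values. The log2 fold change was 0.06 (SE 0.049, adjusted p = 0.802 by edgeR), and 0.04 without WT replicate 4. The ATPase Psmc2 had -0.05 (SE 0.049, adjusted p = 0.857 by edgeR), with -0.08 without WT replicate 1 and -0.03 without WT replicate 2. Psmd2, the other scaffold and the docking site of shuttle proteins, lies on chromosome 16, 4.38 Mb from Pkp2, and had 227.5 to 239 CPM in all 8 libraries. Psmd4, a ubiquitin receptor, had 90.4 to 96.7 CPM in 7 libraries and 83.3 CPM in WT replicate 3.

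The lid, which carries the deubiquitinase Psmd14, had 6 genes above and 2 below 0 (median 0.02, 0 of 8 called). The split was 4 and 4 without WT replicate 3 and 1 and 7 with library-size scaling, where 32.75% of all genes lay above 0. Psmd14 stood at 45.2, 43.3, 45.5 and 42.3 CPM in HET and at 42.98, 43.1, 42.3 and 45.7 CPM in WT, and the groups covered nearly the same range. Psmd11, a lid subunit that contacts the core, had a log2 fold change of 0.05 (SE 0.046, adjusted p = 0.835 by edgeR) at 73.6 to 81.3 CPM. Psmd3, a structural subunit, had -0.04 (SE 0.045, adjusted p = 0.848 by edgeR), and -0.03 without HET replicate 4. The structural subunit Psmd13 varied least within the lid, at 61.3 to 65.6 CPM with a coefficient of variation of 2.16%, and Psmd8 most, at 80.2 to 95.3 CPM with 5.54%.

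Among the chaperones of base assembly, Psmd9 stood at 17.2, 15.6, 17.2 and 17.9 CPM in HET and at 17.3, 19.2, 18.3 and 19.4 CPM in WT. HET replicate 4 lay above WT replicate 1, and the log2 fold change was -0.13 (SE 0.064, adjusted p = 0.77 by edgeR). Psmd5 went the other way, with 0.09 (SE 0.056, adjusted p = 0.773 by edgeR), at 17.7 to 18.4 CPM in HET and 16.1 to 17.9 CPM in WT. Psmd10 (gankyrin) had 7.51 to 9.82 CPM. Of the chaperones of core assembly, Psmg1, which pairs with Psmg2 to build the alpha ring, had -0.06 (SE 0.063, adjusted p = 0.842 by edgeR), -0.03 without HET replicate 2 and -0.11 without HET replicate 3. Psmg4, the partner of Psmg3, stood at 5.27, 6.71, 5.97 and 5.98 CPM in HET and at 5.74, 6.86, 8.12 and 6.73 CPM in WT. WT replicate 3 was its highest library, and its log2 fold change of -0.20 (SE 0.121, adjusted p = 0.770 by edgeR) was -0.11 without it.

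Of the 5 activator and inhibitor genes 2 lay above and 3 below 0 (median -0.01, 0 called; 4 above and 1 below, median 0.02, without WT replicate 3), and the interferon-induced pair Psme1 and Psme2 was high in 1 library. Psme1 (ENSMUSG00000022216; chromosome 14, 55578123 to 55581529, plus strand) stood at 113.4, 108.6, 102.3 and 116.6 CPM in HET and at 102.2, 112.1, 215.9 and 108.7 CPM in WT. Psme2 (ENSMUSG00000079197; chromosome 14, 55587441 to 55591113, minus strand), its partner in the same ring and 5.91 kb away, stood at 39.8, 39.7, 38.0 and 38.3 CPM in HET and at 36.8, 42.1, 115 and 38.1 CPM in WT. WT replicate 3 exceeded all other libraries for both genes, and the other 3 WT libraries covered the HET range or lay beside it. The log2 fold change of Psme2 was -0.58 (SE 0.411, adjusted p = 0.793 by edgeR) and -0.00 without WT replicate 3. That of Psme1 was -0.29 (SE 0.251, adjusted p = 0.821 by edgeR) and 0.03 without it. Psme2 has a near copy, Psme2b, with 3.62 CPM in WT replicate 3 and 1.17 to 1.72 CPM elsewhere. How reads shared between the copies were counted was not given in the sources used here, so the values of Psme2 are uncertain to that extent.

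The remaining activators did not share this pattern. Psme3, the nuclear activator, stood at 74.8, 67.0, 74.7 and 71.6 CPM in HET and at 70.4, 65.5, 66.9 and 63.7 CPM in WT. HET replicate 2 lay among the WT values, and the log2 fold change of 0.11 (SE 0.053, adjusted p = 0.77 by edgeR) had the smallest unadjusted p of the 44 genes, 0.0569 by edgeR. Psme4, an activator known for acetylated histones and spermatogenesis, stood at 400.8, 409.6, 419.9 and 344.8 CPM in HET and at 374.5, 411.2, 351.1 and 373.8 CPM in WT. HET replicate 4 was its lowest library, HET replicate 3 its highest, and WT replicate 3 lay between. Psmf1, an inhibitor of the core in vitro, had 21.7 to 24.4 CPM.

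The immunoproteasome genes, which the member rule leaves out, were high in the same library. Psmb8 stood at 92.6 CPM in WT replicate 3 and at 11.3 to 16.4 CPM in the other 7 libraries, Psmb9 at 60.9 against 5.28 to 9.61 CPM, and Psmb10 at 215.1 against 35.1 to 41.2 CPM. Per length (TPM over the union of annotated exons), Psmb8 was at 126% of Psmb5 in WT replicate 3 and at 10.2% to 21.6% elsewhere. Psmb9 was at 31.4% of Psmb6 against 2.68% to 4.81%, and Psmb10 at 352% of Psmb7 against 56.6% to 65.9%. The size of these ratios depends on the length used, and no other length was tried for them. The exon union is 3381 bases for Psmb8 and 899 for Psmb5. WT replicate 3 was also among the libraries low in Psmb5, at 19.5 CPM. The log2 fold changes of Psmb8, Psmb9 and Psmb10 were -1.37 (SE 0.738), -1.51 (SE 0.831) and -1.16 (SE 0.671), with adjusted p-values of 0.770 by edgeR, and -0.18, -0.14 and -0.09 without WT replicate 3.

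Other interferon-induced genes and macrophage markers were also highest in this 1 library, WT replicate 3, and lymphocyte markers were so in part. A list of 13 interferon response genes without any proteasome gene summed to 1344 CPM in WT replicate 3 and to 152.9 to 214.8 CPM in the other 7 libraries, and all 13 were highest there. All 5 macrophage markers were highest in WT replicate 3, with a sum of 211.5 CPM against 141.9 to 161 CPM. The 5 lymphocyte markers summed to 2.39 CPM against 1.23 to 1.97 CPM, with Cd3e and Cd3g too low to test and Cd3g at 0 in at least 1 library. Of the 3 tested, 2 were highest in WT replicate 3. Cd79a was highest in HET replicate 3 (0.613 CPM, against 0.580 in WT replicate 3), and Cd3g in WT replicate 4. All 5 erythroid markers were highest in WT replicate 3 too, with a sum of 494.4 against 211.2 to 391.1 CPM. The part of these cells in the proteasome values was not tested. Of the 5 genes with interferon letters in their window, Psme1 and Psmg4 were highest in WT replicate 3, Psmd4 was lowest, and Psmb3 (41.6 CPM) and Psmd9 (18.3 CPM) lay between the others. Psme2, highest there, has no such letters in either window. WT replicate 3 was the highest library for 6 of the 44 proteasome genes, against 16.3% of all genes, and the lowest for 11, against 14.1%.

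**Figure D3:**
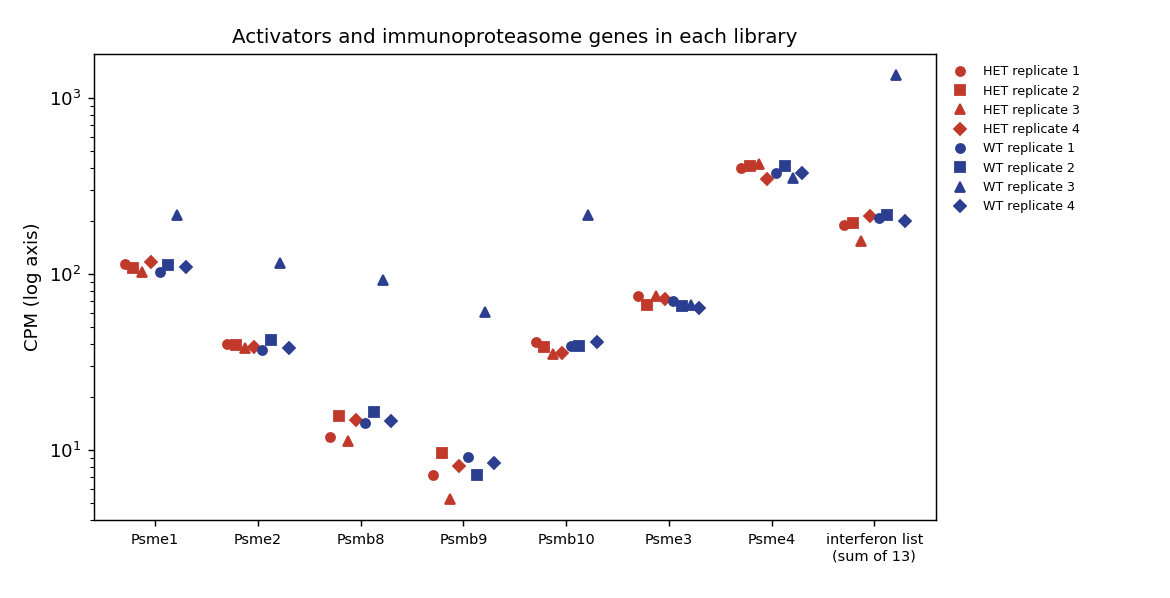
CPM (log axis) of the activator genes, the immunoproteasome genes and the sum of 13 interferon response genes in each library, with HET in red, WT in blue and a symbol for each replicate. WT replicate 3 lies above the other 7 libraries for Psme1, Psme2, Psmb8, Psmb9, Psmb10 and the interferon sum, and among them for Psme3 and Psme4.

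Levels were compared between genes only per length. By TPM over the union of annotated exons the 14 general core subunits ran from Psma6 (198 ± 4.2 TPM, SD over 8 libraries) to Psma3 (26.9 ± 1.6 TPM), a 7.37-fold range among proteins that the core holds in equal number. With the coding length in place of the exon union the range was 4.95-fold, from Psmb4 (168 ± 9.1 TPM) to Psmb5 (34.0 ± 6.5 TPM). Psma6 was then the sixth gene and Psmb5 moved from the ninth place to the last, so the order depends on which transcripts are counted as a gene's length. Under either length 9 of the 13 pairs of neighbours in the order overlapped between libraries. By exon union Psma6 and Psmb2, Psmb2 and Psmb4, and Psmb4 and Psmb6 overlapped, whereas Psmb7 (95.6 TPM) lay apart from Psmb6 (143.5 TPM) above it and Psma1 (80.9 TPM) below it. By coding length the 8 highest genes, from Psmb4 to Psma1, formed an unbroken chain of overlapping neighbours.

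Outside the core, Psmc3 and Psmc5 led the base by exon union (185 and 180 TPM) and Psmd1 was lowest (44.8 TPM). Psmd7 led the lid under both lengths (107.5 TPM by exon union), with Psmd11 lowest by exon union (31.5 TPM) and Psmd14 by coding length (52.2 TPM). Psme4 had the highest CPM of all 45 genes, but its transcript is long, and per length it stood at 120 ± 6.3 TPM by exon union and 77.3 ± 4.7 TPM by coding length. The base assembly chaperones Psmd5, Psmd9 and Psmd10 had 6.33, 6.4 and 15.7 TPM by exon union and 12.9, 29.6 and 14.1 TPM by coding length. Psmg1 to Psmg4 had 5.58 to 36.2 TPM by exon union and 18.8 to 33.8 TPM by coding length. The means of Psmg1, Psmg2 and Psmg4 lay above that of Psma3 by exon union, with overlapping ranges for Psmg1 and Psmg4. By coding length all 4 lay below Psma3 (58.2 TPM). Psma8 stood at 0.730 TPM, below every other detected gene of the complex under both lengths.

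**Figure D4:**
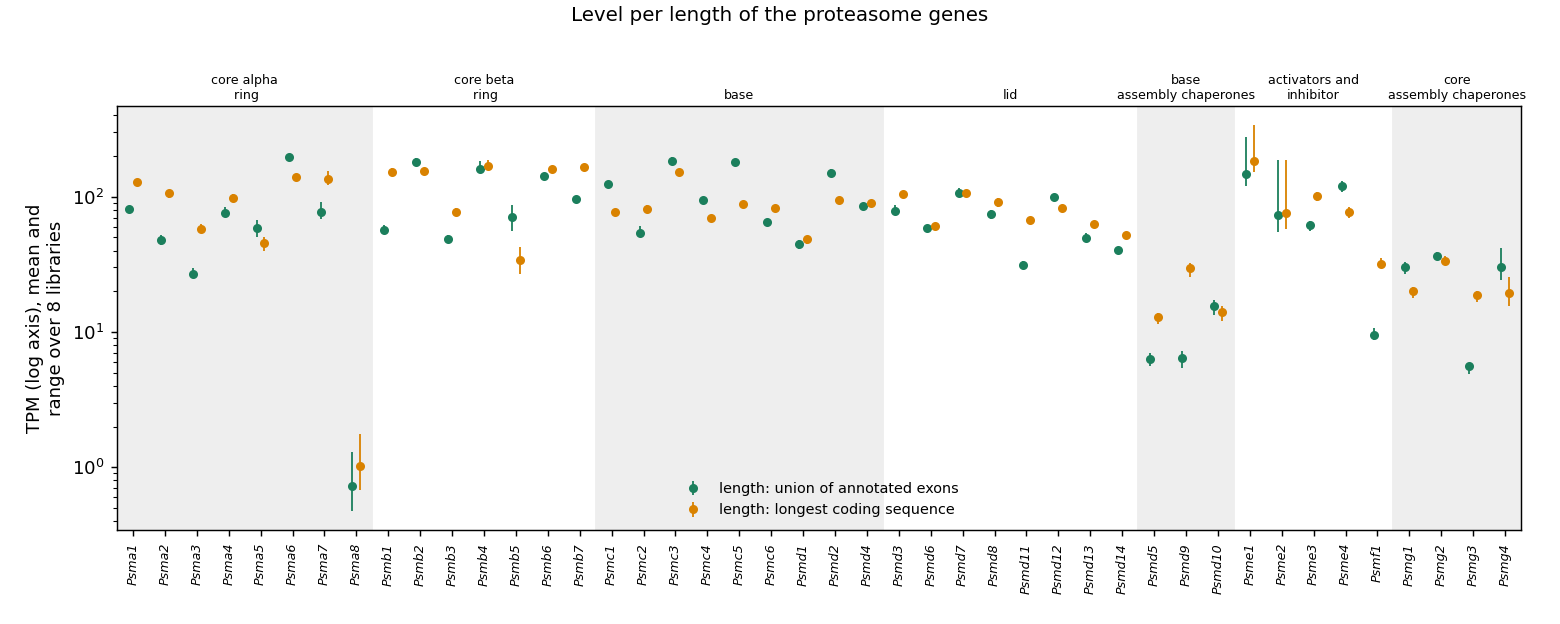
Level per length (TPM, log axis) of the 44 tested genes by role, as the mean and range over the 8 libraries, with the union of annotated exons as length in green and the longest coding sequence in orange. The ranges of most genes are narrower than the difference between the lengths, and Psme1 and Psme2 have long upper bars.

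Proteasome genes also shared differences between libraries that did not follow genotype. In WT replicate 2, 36 of the 44 genes stood above their own mean over the 8 libraries, and 15 had their highest value there, against 15.6% of all genes. In HET replicate 3 and in WT replicate 1, 13 of the 44 stood above their mean. The counts for HET replicates 1, 2 and 4 were 28, 18 and 25, and those for WT replicates 3 and 4 were 18 and 27. Over all genes tested, the share above their own mean ran from 48.1% in HET replicate 3 to 50.9% in WT replicate 3. That of the 44 ran from 29.55% to 81.8%. The core subunits separated the libraries further: of the 14, 13 lay above their mean in WT replicates 2 and 4, 2 in WT replicate 1 and 0 in HET replicate 3. The median deviation of these 14 from their own means was 0.08 on the log2 scale in WT replicate 2 and -0.06 in WT replicate 1, so both ends of the order were WT libraries.

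The balance between the parts of the complex, taken as TPM by exon union, varied little between libraries. The mean TPM of the 9 base genes over that of the 14 core genes was 1.15, 1.18, 1.19 and 1.17 in HET and 1.18, 1.14, 1.13 and 1.13 in WT. WT replicate 1 fell among the HET libraries, and the groups overlapped. The ratio of lid to core was 0.711, 0.732, 0.747 and 0.707 in HET and 0.725, 0.715, 0.706 and 0.692 in WT, again with overlap. HET replicate 3 had the highest value of both ratios. Whether base genes lie above core genes depends on the length used. Median TPM by exon union was 94.4 for the base, 67.4 for the alpha ring and 95.6 for the beta ring. By coding length the medians were 82.8, 102.1 and 154.5.

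**Figure D5:**
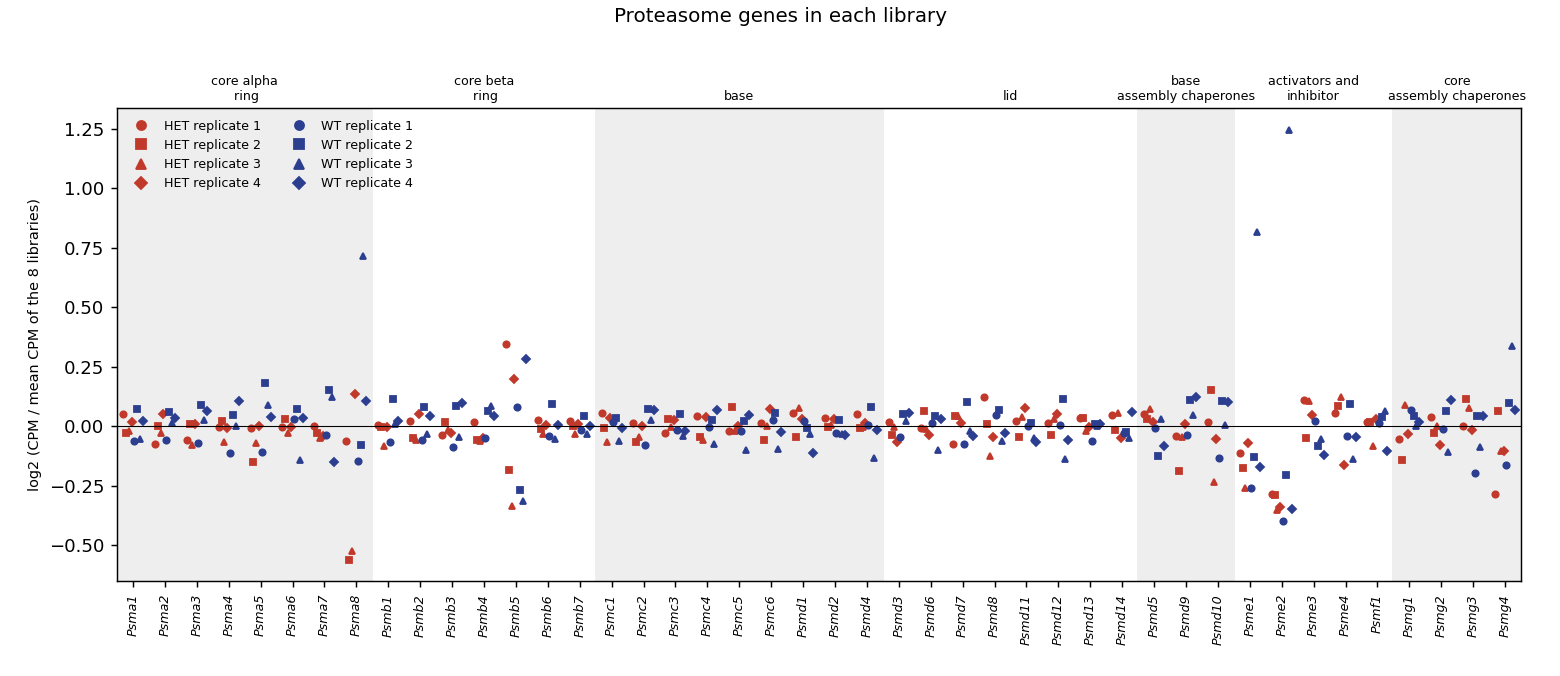
Log2 of each library's CPM over the gene's mean of the 8 libraries, for the 44 tested genes by role, with HET in red, WT in blue and a symbol for each replicate. Most points lie close to 0, WT replicate 3 stands out for Psme1, Psme2 and Psma8, and Psmb5 splits into 4 high and 4 low libraries of both genotypes.

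The other genes of the pathway gave 0 calls by edgeR, with 1 at an unadjusted p under 0.05, against 6.38% of all genes. Of 42 genes in 6 lists (immunoproteasome, other proteasome proteins, regulators, shuttle factors, ubiquitin with its activating enzymes, and the segregase Vcp with cofactors), 41 were in the table and tested. DESeq2 and limma-voom called 0 as well, each with 2 at unadjusted p. DESeq2 gave Psmb8 and Psmb9 no adjusted p, so it could not call them. Of the 41, 25 lay above and 16 below 0 (median 0.02), and the groups did not overlap for 1. That gene was Faf1, a Vcp cofactor, at 86.5, 85.05, 89.5 and 83.6 CPM in HET and at 83.3, 73.3, 79.5 and 78.5 CPM in WT. All HET libraries lay above all WT libraries, with HET replicate 4 and WT replicate 1 nearly level. Its log2 fold change was 0.13 (SE 0.051, unadjusted p = 0.0260, adjusted p = 0.77 by edgeR), and 3.78% of all genes separate the groups in this way.

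Genes that act beside the proteasome showed differences of similar size. Among other proteasome proteins, the ubiquitin ligase Ube3c had a log2 fold change of 0.13 (SE 0.069) and the adaptor Ecpas 0.10 (SE 0.053), both with adjusted p = 0.77 by edgeR. Nfe2l1, the regulator of proteasome genes, stood at 558.1, 586.8, 604 and 581.1 CPM in HET and at 553.9, 538.4, 554.1 and 562 CPM in WT. HET replicate 1 lay below WT replicate 4, and the log2 fold change was 0.08 (SE 0.042, adjusted p = 0.77 by edgeR). Ngly1, the glycanase that Nfe2l1 needs to become active, had 0.09 (SE 0.066, adjusted p = 0.783 by edgeR), and 0.06 without HET replicate 3. The 6 genes with antioxidant letters in their window lay on both sides of 0 and none was called.

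Shuttle factors and ubiquitin genes were likewise without a call. Ubqln4 had a log2 fold change of 0.10 (SE 0.075), with 0.17 without HET replicate 2 and 0.06 without HET replicate 3. Ubqln1 had 0.05 (SE 0.055), and 0.02 to 0.09 when single libraries were left out. The Vcp cofactor Nploc4 had 0.07 (SE 0.052), with 0.11 without WT replicate 1 and 0.03 without WT replicate 4. The ubiquitin fusion gene Rps27a had -0.07 (SE 0.051), and -0.04 without HET replicate 3. The adjusted p-values of these 4 genes by edgeR were 0.790 to 0.858.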

How the data were processed

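The deposited values are raw read counts per gene, whole numbers that the authors made with STAR 2.4.2a and HTSeq 0.6.1 on GRCm38/mm10, per the submitters' processing notes. The labels' protocols give Trizol extraction and a stranded TruSeq poly(A) kit. Annotation release and strand setting of the counting are not given in the sources used here, so genes that overlap on opposite strands are uncertain. Symbols, positions and lengths came from GENCODE release M21, matched by Ensembl identifier (36345 of 38293 genes). Replicates are numbered in accession order and pair nothing. edgeR 4.0.16 (R 4.3.3) fitted all 8 libraries with filterByExpr, TMM scaling and a robust quasi-likelihood test, two-sided, without covariate. P-values were adjusted by Benjamini-Hochberg over the 14567 genes tested, at 0.05. Log2 fold changes are HET over WT. CPM are on TMM-scaled library sizes, and TPM were computed here from the deposited counts. The fitting script was tested on simulated data. Alternatives were RLE and library-size scaling, no filter, a filter of 1 CPM in 4 samples, DESeq2 1.42.0, limma-voom 3.58.1 with sample weights, the first 4 title digits as covariate, and leaving out each library. Promoter windows are from RefSeq, on GRCm38.p6.

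The genes, their roles and the lists were chosen with earlier results of these data known. Fold changes are printed by rule for Pkp2, Psma5, Psmb4, Psmd1, any member with an unadjusted p under 0.05, and the 2 genes of smallest p in each role and pathway list. Psmb5, Psme1 and Psmb10 were added after their values were seen. Of the ubiquitin list, 2 genes are counted in the list but not reported here singly.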

Additional observations from a re-analysis of the deposited data

Results flagged for a closer look

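Values were compared within each group of 4 libraries by Dixon's test, which marks a library whose gap to its nearest neighbour takes a larger share of the group's range than the 95% critical value. Of 114 groups (57 genes in HET and in WT) 11 were marked, 9.65%, where chance marks about 1 in 20. Genes that rise together in a library are marked together, so the groups are not independent and the share is no test against chance.

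Of the 11 marked libraries, 6 are WT replicate 3. It was the highest WT library for Psme1 (215.9 CPM against 102.2 to 112.1), Psme2 (115 against 36.8 to 42.1), Psmb8 (92.6 against 14.2 to 16.4), Psmb9 (60.9 against 7.19 to 9.18) and Psmb10 (215.1 against 38.8 to 41.2), the activator pair and the immunoproteasome genes, and the lowest WT library for Pkp2 (148.4 against 165.6 to 169).

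The others were spread over 4 libraries. HET replicate 3 was the lowest HET library for the core subunit Psmb1 (93.95 CPM against 99.4 to 99.9) and for the inhibitor Psmf1 (22.0 against 23.6 to 23.9). HET replicate 1 was the highest HET library for the core subunit Psmb4 (121.4 against 114.8 to 115.9). WT replicate 2 was the highest WT library for the base scaffold Psmd2 (237.3 against 227.5 to 229.1), and WT replicate 1 the lowest for the lid subunit Psmd13 (61.3 against 64.0 to 64.5).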

How the results depend on the processing

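The count of proteasome genes called was 0 under all 15 alternatives, as was that of pathway genes. Genes called in all (1, Pkp2) came to 2 without the filter on low counts and 13 by DESeq2, and to 1 to 3 when single libraries were left out, with 3 without HET replicate 3. Proteasome genes at an unadjusted p under 0.05 by edgeR, 0 with all libraries, numbered 2 with library-size scaling (Psmb4, Psmd9), 1 without HET replicate 2 (Psme3) and 4 without WT replicate 1 (Psma5, Psmd9, Psme3, Psmg4). The share of all genes at that p was 6.38% in the main fit and is not given for these runs, so these counts cannot be set against it. The median log2 fold change over these genes ran from -0.05 (library-size scaling, where the median of all genes was also -0.05) to 0.01 (title digits as covariate). The split of 19 above and 25 below 0 became 7 and 37 with library-size scaling, 28 and 16 with the title digits as covariate and 12 and 32 without WT replicate 3. The share of all genes above 0 was 48.52% in the main fit and 32.75%, 49.98% and 47.42% in these runs, in the same order. Of the 26 genes named by rule, 24 kept their sign in every alternative run. With the title digits as covariate Psmb1 changed to 0.011 and Ubqln4 to -0.012. No call of a named gene changed. The adjusted p of Pkp2 ran from 9.03e-21 to 0.0392 over the alternatives. Those of the other named genes, missing for Psmb8 and Psmb9 by DESeq2, were 0.563 or more. Median TPM by role moved with the length used, for the alpha ring from 67.4 by exon union to 102.1 by coding length. No paired analysis was possible because, of the numbers after the letter M in the sample titles, the groups share a single one. The digits that follow them were fitted as a covariate instead. Precision is limited by 4 libraries a group and, for Psma8, by 15 to 47 counts.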

Other observations

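Heat shock genes, which help misfolded proteins to refold, were also read by library. The 8 genes of the list summed to 1367, 1330, 1554 and 1448 CPM in HET and to 1123, 1198, 1540 and 1212 CPM in WT. WT replicate 3 fell among the HET libraries, and the other 3 WT libraries lay below all 4. The lowest adjusted p of the 8 genes by edgeR was 0.77. Hspa8 was the largest part of each sum, at 506 to 816.6 CPM, with its highest value in WT replicate 3. Hspa1a and Hspa1b stood at 1.23 to 15.5 CPM, both highest in HET replicate 3. HET replicate 3, with the highest sum, was the library in which 0 of the 14 core subunits stood above their own mean. WT replicate 2, in which 13 of the 14 did, had a sum close to that of WT replicate 4, in which 13 did as well. WT replicate 1, with the lowest sum, had 2 of the 14 above their mean. WT replicate 3, at 1540 CPM, had 7, and HET replicates 1, 2 and 4 had 8, 6 and 8. A relation between the heat shock sum and the core subunits was not tested.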
